A study of Pimephales promelas with 26 samples.

Results

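The comparison described here is the concentration step between the highest pair of exposures in a study of fluoxetine in larval fathead minnows (Pimephales promelas), a freshwater fish of the carp family that is widely kept for testing chemicals. Its members are the 3 libraries labelled 47.2 µg/L and the 5 libraries labelled 10.2 µg/L, chosen by their labels, so 8 of the 26 libraries of the series. The other libraries are a water control (n = 5) and larvae at 0.19 (n = 3), 0.74 (n = 5) and 3.38 µg/L (n = 5), all of them measured concentrations. Each library was made from poly(A)-selected RNA of 20 pooled whole larvae. No mutant, transgene or second agent is named in the labels, and both groups were exposed through the water, with daily renewal of at least 50% of the solution, from 6 h to 7 days after fertilization. No water library enters the step itself, so it compares 1 exposure with another. A pool of whole bodies also means that fewer cells of a type and less RNA per cell cannot be told apart in any value below.

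Fluoxetine is an antidepressant that blocks the transporter by which neurons take serotonin back up. It is also a cationic amphiphilic drug, a weak base with a fat-soluble part, and such drugs gather in the acidic interior of lysosomes. Lysosomes digest proteins, glycans and lipids with acid hydrolases behind a membrane held acidic by a proton pump, and a load of undigested phospholipid, called phospholipidosis, is a known effect of drugs of this class in animals and cultured cells. Macrophages and some enterocytes of the gut are rich in lysosomes in fish larvae.

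The 8 libraries held between 15659911 and 27614956 estimated counts, so that 3 counts in a library, taken as the floor of detection, correspond to 0.110 to 0.194 CPM (counts scaled to a common library size). Mean fragment length was 230, 227, 247, 230 and 226 bases in the 10.2 µg/L libraries A to E. It was 247, 228 and 240 bases in the 47.2 µg/L libraries A to C. The ranges overlapped, but 10.2 µg/L C stood above the rest of its group and 47.2 µg/L B below the rest of its own. The 0.19 and 0.74 µg/L libraries lay between 248 and 263 bases. All 13 pairs of replicates of these groups differed by more than sampling noise (chi-square per degree of freedom at least 19.3). The labels describe separate dishes of embryos for the replicates, and the spread between libraries is therefore the spread between such pools. Of 49 tissue markers, 34 could be matched to a symbol, and 32 of these were at 1 TPM or more (a length-scaled level) in every one of the 8 libraries. They covered gut, pancreas, liver, retina, brain, muscle, skin, lens, cartilage and blood, with cartilage resting on col2a1a alone and erythroid cells on alas2 alone.

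The transcripts called higher at 47.2 than at 10.2 µg/L included genes for lysosomal enzymes and for cartilage, bone and extracellular matrix. Those called lower included genes of gut absorption, of photoreceptors and of neurons. Of 43837 transcripts tested, 940 passed an adjusted p of 0.05 in edgeR's quasi-likelihood test (2.14%), 537 of them higher at 47.2 µg/L (1.22%) and 403 lower (0.919%). The median log2 fold change was 0.77 among those higher and -0.59 among those lower, and 172 rose and 72 fell by more than 1 on the log2 scale. In 844 of the 940 the CPM of the groups did not overlap, beside 2157 transcripts with the groups apart and 47.2 µg/L higher (4.92% of all tested) and 1901 with 47.2 µg/L lower (4.34%). As background to the counts by list, 8.78% of all transcripts were higher and 7.86% lower at an unadjusted p below 0.05. DESeq2 called 3.73% higher and 3.62% lower. Over the transcripts of all lists together, 82 of 1265 were called (6.48%), 55 higher and 27 lower. By gene sums, 102 of 945 listed genes were higher and 78 lower. Shares of 6.67% to 8.82% given below for single lists therefore lie near the share of all listed transcripts. The lists were chosen with earlier results of these data known, so a list's share beside that of all transcripts is a description. When the transcripts of each gene were summed, 1137 of 19052 genes passed as higher (5.97%) and 953 as lower, 11% in all. A gene symbol was paired with 640 of the 940, a locus number alone with 72, and no gene with 228. Against water, the same fit called 45 transcripts at 47.2 µg/L (0.103%) and 0 at 10.2 µg/L, where 2342 had an unadjusted p below 0.05. All 3 comparisons share libraries, so their counts were not set against each other.

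These calls rest on a spread estimated from all 26 libraries. With the 8 libraries fitted alone, edgeR called 0 transcripts (4793 at an unadjusted p below 0.05, smallest adjusted p 0.0719). The 937 of the 940 that could be tested there all kept their direction, which the same 8 libraries had already set. The count was 114 without 47.2 µg/L library A, 369 without 47.2 µg/L C, 315, 218 and 194 without 10.2 µg/L A, B or E, and 2201 without 10.2 µg/L D. With each library's fragment length as a covariate the count was 284, and DESeq2 on all 26 libraries called 3222. In each of the fits named here but that of the 8 libraries, all 940 kept their direction. These fits reuse all, or all but a single one, of the libraries that chose the transcripts, so a kept direction is no independent support. With the covariate, 10 of the 19 lysosomal calls described below remained, as did 9 of the 17 matrix, 6 of the 7 intestinal, 5 of the 10 neuronal and 0 of the 7 photoreceptor calls. Without the 0.19 and 0.74 µg/L libraries in the fit, which then made 333 calls, the numbers were 10, 9, 4, 5 and 0 in the same order. That last fit was chosen after the data were seen.

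**Figure D1:**
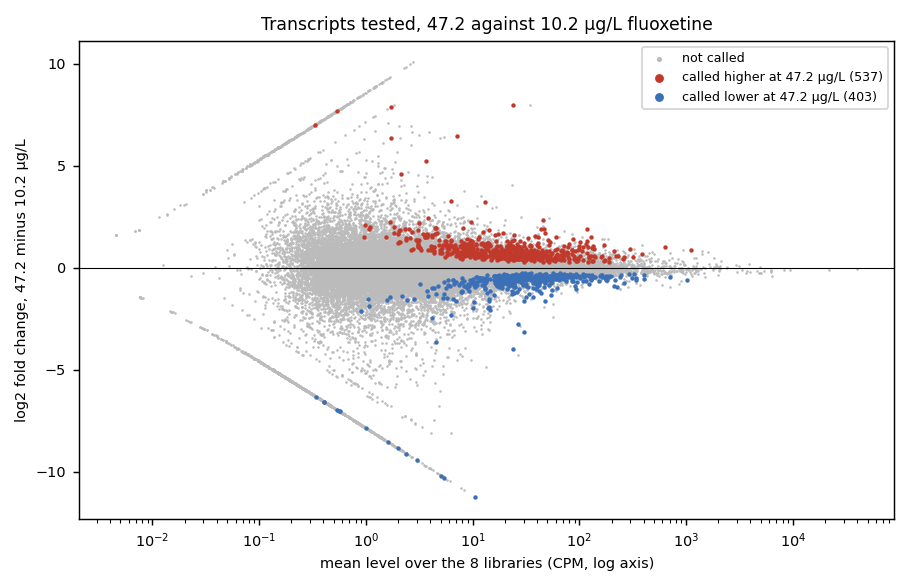
Log2 fold change between 47.2 and 10.2 µg/L (y axis) against the mean level over the 8 libraries in CPM (x axis, log scale), 1 point per transcript, with the 537 transcripts called higher in red, the 403 called lower in blue and the others in grey. Most called transcripts lie within a log2 change of about 1 to either side of 0, and the far points at low levels have almost no counts in one of the groups.

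The step did not run on from the lower concentrations. For each called transcript, the mean log2 CPM of every other group was placed on a scale on which the 10.2 µg/L mean is 0 and the 47.2 µg/L mean is 1. Among the 537 transcripts higher at 47.2 µg/L, the median position was 0.36 in water, 0.85 at 0.19 µg/L, 0.68 at 0.74 µg/L and 0.14 at 3.38 µg/L. Among the 403 lower ones it was 0.32, 0.84, 0.64 and 0.12 in the same order. The lowest pair of concentrations therefore lay nearer to 47.2 µg/L, and water and 3.38 µg/L nearer to 10.2 µg/L. Both 0.19 and 0.74 µg/L were nearer to 47.2 µg/L in 376 of the 537 (70.0%) and in 258 of the 403 (64.0%). All 4 other groups were nearer to 10.2 µg/L in 61 (11.4%) and 59 (14.6%). The 0.19 and 0.74 µg/L libraries also had the longest fragments of all, at 248 bases or more against at most 247 at 47.2 µg/L. Non-coding transcript models made up 1.34% to 1.45% of the 0.74 µg/L libraries, and 1.36%, 2.41% and 1.43% of 0.19 µg/L A to C. They made up 1.34%, 1.76% and 1.59% of 47.2 µg/L A to C. The range was 1.55% to 1.87% at 10.2 µg/L, with 1.56% or more in water and at 3.38 µg/L. Library 47.2 µg/L A had the longest fragments and the lowest non-coding share of its group. The part of either trait in these positions was not tested. Since the 10.2 and 47.2 µg/L values chose the transcripts and set the ends of the scale, these positions are a description. Tested directly against the mean of 0.19 and 0.74 µg/L, a comparison chosen after the data were seen, 47.2 µg/L differed in 6 transcripts of the 43837 (0.0137%).

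Lysosomal genes that passed the test were all higher at 47.2 µg/L. The lists of proteases, of glycan and lipid hydrolases, and of membrane, acidification and autophagy genes held 142 transcripts tested, of which 19 rose and 0 fell (13.4% against 2.14% of all transcripts). At an unadjusted p below 0.05 there were 51 higher and 11 lower, beside 8.78% and 7.86% of all transcripts, and DESeq2 called 30 higher and 5 lower. Among the proteases 8 of 19 transcripts passed, 14 had a higher estimate and the median log2 fold change was 0.40 (0.66 without 47.2 µg/L C). The mean log2 level of that list in 47.2 µg/L C, 0.13 relative to the 10.2 µg/L mean, lay inside the range of the 10.2 µg/L libraries, -0.20 to 0.24. Among the hydrolases of glycans and lipids 5 of 44 passed and 40 had a higher estimate, with a median of 0.31 (0.19 without 47.2 µg/L A). In the membrane list 6 of 79 passed, with a median of 0.060 (0.025 without 47.2 µg/L A and 0.097 without 10.2 µg/L E), beside a median of -0.0067 over all transcripts. Summed per gene, 33 of 107 lysosomal genes rose and 4 fell, where 11% of all 19052 genes tested passed. Of the 19 transcripts, 3 remained called without 47.2 µg/L library A, 13 without C, and 11, 8 and 10 without 10.2 µg/L A, B or E.

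Among the cysteine proteases, ctsla (cathepsin L) stood at 404, 407, 450.0, 642 and 405 CPM in the 10.2 µg/L libraries A to E and 1113, 899.6 and 756 CPM in the 47.2 µg/L libraries A to C. Every 47.2 µg/L library lay above every 10.2 µg/L library, although 10.2 µg/L library D was well above its group. The difference was log2 fold change 1.0 ± 0.15 (SE), adjusted p = 0.00428, and it stayed called whichever of the 8 libraries was left out. The group means of water, 0.19, 0.74 and 3.38 µg/L were 512, 617, 569 and 485 CPM, all nearer to 10.2 µg/L. For ctsba (cathepsin B), the values were 85.0, 81.8, 107, 120.4 and 77.8 CPM in the 10.2 µg/L libraries A to E and 275, 154 and 168 CPM in the 47.2 µg/L libraries A to C. Library A was the highest at 47.2 µg/L, and without it the call was lost (log2 fold change 1.07 ± 0.18 (SE), adjusted p = 0.00624 with all libraries). Legumain, an asparaginyl endopeptidase that also activates cathepsins, is represented by lgmn with a main transcript at 302, 248, 370.4, 322 and 354 CPM at 10.2 µg/L (A to E) and 603, 446 and 459 CPM at 47.2 µg/L (A to C). The groups did not overlap (log2 fold change 0.65 ± 0.13 (SE), adjusted p = 0.0152), and this call too was lost without 47.2 µg/L A. Its other transcript, at a lower level, had a log2 fold change of 1.08 (adjusted p = 0.305) with overlapping groups. The remaining proteases called were ctsc at 0.65, ctsz at 0.58, the serine carboxypeptidase ctsa at 0.69, the tripeptidyl peptidase tpp1 at 0.72 and the aspartic protease ctsd at 0.36 on the log2 scale, and each of these 5 lost its call without 47.2 µg/L A.

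Of the enzymes that digest glycans and lipids, glb1l2, a relative of lysosomal beta-galactosidase, showed the largest change on the lysosomal lists. It was at 4.78, 2.36, 4.21, 3.32 and 1.23 CPM in the 10.2 µg/L libraries A to E and 29.4, 27.9 and 30.8 CPM in the 47.2 µg/L libraries A to C. The 47.2 µg/L libraries were close together and far above all 5 at 10.2 µg/L (log2 fold change 3.2 ± 0.55 (SE), adjusted p = 0.00754), a call that held in 8 of the 8 leave-one-out fits, each made without 1 of the libraries. Its group means were 31.6 ± 7.44 CPM at 0.19 µg/L (SD, n = 3) and 31.3 ± 7.29 CPM at 0.74 µg/L (SD, n = 5), as high as at 47.2 µg/L, but 5.09 in water and 2.31 CPM at 3.38 µg/L. Levels of glb1l2 therefore fell into a high and a low range that did not follow concentration. By contrast, pla2g15, the lysosomal phospholipase A2 that cationic amphiphilic drugs are known to inhibit in mammalian cells, stood at 56.0, 53.7, 58.0, 73.0 and 53.5 CPM in the 10.2 µg/L libraries A to E and 118, 73.0 and 83.5 CPM in the 47.2 µg/L libraries A to C. All 47.2 µg/L libraries were above the highest at 10.2 µg/L, with libraries 10.2 µg/L D and 47.2 µg/L B about level (log2 fold change 0.64 ± 0.12 (SE), adjusted p = 0.0113; called in 7 of the 8 leave-one-out fits), and the means of the other 4 groups ran only from 64.2 to 66.0 CPM. The other 3 called were psap, the precursor of the saposins that help hydrolases reach lipids, at 0.59, gusb (beta-glucuronidase) at 0.87 and ppt1 (palmitoyl-protein thioesterase) at 1.16 on the log2 scale. They held in 5, 3 and 2 of those fits.

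In the lysosomal membrane list, lamp1a, a glycoprotein that lines the inner face of the membrane, was at 60.8, 67.6, 70, 83.9 and 67.7 CPM in the 10.2 µg/L libraries A to E and 164, 108 and 104 CPM in the 47.2 µg/L libraries A to C. The groups were apart and library A was the highest (log2 fold change 0.84 ± 0.15 (SE), adjusted p = 0.0106; not called without it). The tetraspanin cd63 rose by 0.73 and vac14, a scaffold of the kinase complex that makes the endolysosomal lipid PI(3,5)P2, by 0.66 on the log2 scale. The vac14 call held in 8 of the 8 leave-one-out fits and the cd63 call was lost without 47.2 µg/L A. A larger change was that of grnb, a granulin precursor, at 1.42 (adjusted p = 0.0247), held in 5 of the 8 leave-one-out fits. Subunits of the proton pump that passed were atp6v1e1a at 0.47 and the accessory subunit atp6ap1b at 0.60, the latter with overlapping groups. In 10 of the 19 lysosomal transcripts called, all 4 other groups were nearer to 10.2 µg/L, and in 4 both 0.19 and 0.74 µg/L were nearer to 47.2 µg/L.

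Markers of macrophages and neutrophils, cells with many lysosomes, had mostly higher estimates as well, none of them called per transcript. Their list held 35 transcripts tested, 28 of them with a higher estimate at 47.2 µg/L and a median log2 fold change of 0.49. None passed in edgeR, where 10 were higher and 0 lower at an unadjusted p below 0.05, and DESeq2 called 5 of the 35 higher, beside 3.73% of all transcripts. Summed per gene, 6 of 29 were called higher, beside 5.97% of all genes. The summed level was 310.5 to 381 CPM at 10.2 µg/L and 358 to 576 CPM at 47.2 µg/L. The mean log2 level of the list, relative to the 10.2 µg/L mean, was 0.69, 0.47 and 0.40 in 47.2 µg/L libraries A to C and -0.33 to 0.26 at 10.2 µg/L. The highest of these was library A, the library in which ctsba and lamp1a were also highest. The actin-bundling protein of leukocytes lcp1 had a log2 fold change of 0.71 (adjusted p = 0.0521), coro1a (coronin of blood cells) 0.58 (adjusted p = 0.0527) and the MHC class II chaperone cd74a 0.75 (adjusted p = 0.0948). The part of these cells in the lysosomal values was not tested.

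**Figure D2:**
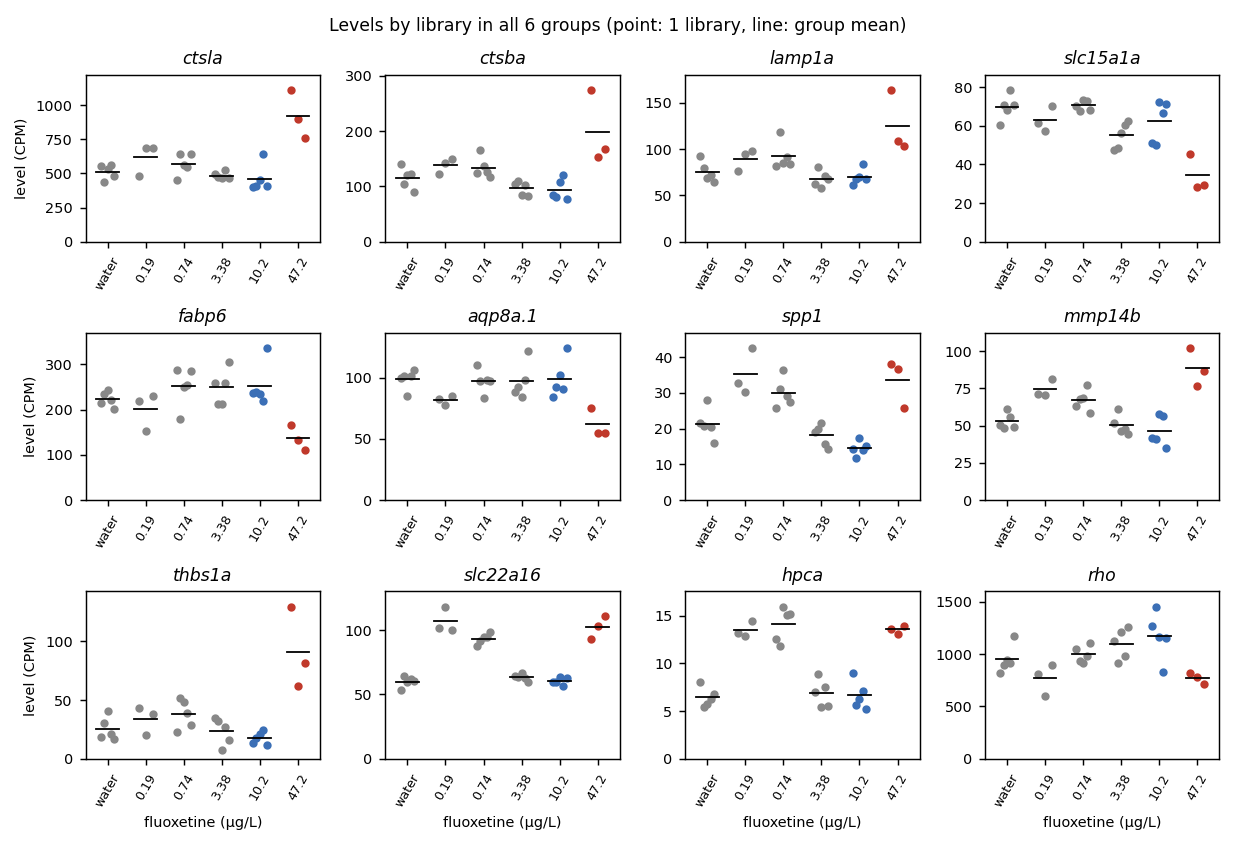
Level in CPM (y axis, from 0) of selected transcripts in all 26 libraries by group (x axis, fluoxetine in µg/L), with 1 point per library, 10.2 µg/L in blue, 47.2 µg/L in red, other groups in grey, and a line at each group mean. For ctsla, lamp1a, slc15a1a and thbs1a the 47.2 µg/L points stand apart from the other group means, whereas for spp1, slc22a16 and hpca the 0.19 and 0.74 µg/L points lie as high as those at 47.2 µg/L.

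Several genes by which enterocytes take up nutrients, water and bile acids were lower at 47.2 µg/L. Of 39 transcripts tested on the intestinal list, 6 fell and 1 rose (17.9% against 2.14% of all), with a median log2 fold change of -0.21 (-0.12 without 10.2 µg/L C). The list as a whole overlapped between groups, at summed levels of 3317 to 4648 CPM at 10.2 µg/L and 3333.5 to 4038 CPM at 47.2 µg/L. Relative to the 10.2 µg/L mean, its mean log2 level was -0.21, -0.27 and -0.14 in 47.2 µg/L A to C. At 10.2 µg/L it ran from -0.23 to 0.18. Summed per gene, 8 of 33 fell and 1 rose, where 11% of all genes passed. The peptide transporter slc15a1a (PepT1), which brings di- and tripeptides into the enterocyte, was at 51.3, 50.1, 72.4, 66.5 and 71.5 CPM in the 10.2 µg/L libraries A to E and 45.5, 28.5 and 29.5 CPM in the 47.2 µg/L libraries A to C. Library A was the highest at 47.2 µg/L and still below the lowest at 10.2 µg/L, so the groups did not overlap. The difference was log2 fold change -0.85 ± 0.15 (SE), adjusted p = 0.00882, held in 8 of the 8 leave-one-out fits. Against water it was -1.02 (adjusted p = 0.00838), and against the mean of 0.19 and 0.74 µg/L -0.95 (adjusted p = 0.0173), the single named transcript that was called there. The ileal bile acid binding protein fabp6 stood at 237, 239, 234, 219 and 336 CPM at 10.2 µg/L (A to E) and 166, 133 and 111 CPM at 47.2 µg/L (A to C). The groups were apart, with 10.2 µg/L library E far above its group (log2 fold change -0.89 ± 0.18 (SE), adjusted p = 0.0143; lost without 47.2 µg/L C).

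The water channel aqp8a.1 was at 84.3, 92.7, 102, 90.6 and 124 CPM at 10.2 µg/L (A to E) and 75.6, 55.2 and 55.2 CPM at 47.2 µg/L (A to C). Its groups did not overlap (log2 fold change -0.67 ± 0.13 (SE), adjusted p = 0.0146; held in 6 of the 8 leave-one-out fits). The brush border enzyme ggt1b (gamma-glutamyltransferase) fell by 0.73, the metalloprotease mep1a.1 (meprin) by 0.58 and the fatty acid binding protein fabp2 by 0.62 on the log2 scale, with all 47.2 µg/L libraries below all those at 10.2 µg/L. All 6 transcripts that fell had the other 4 groups nearer to 10.2 µg/L. The exception was anpepa, an aminopeptidase N of the brush border, which rose from 32.7 to 55.6 CPM on average (log2 fold change 0.77 ± 0.15 (SE), adjusted p = 0.0143) and whose mean at 0.19 µg/L was 58.7 CPM. Of the 7 intestinal calls, 3, 4 and 1 remained without 47.2 µg/L A, B or C, and 4 and 4 without 10.2 µg/L B or E. Another gut marker, vil1 (villin, a brush border actin binder), summed over its transcripts, was at 278 to 430.3 CPM at 10.2 µg/L and 345 to 370.3 CPM at 47.2 µg/L, so its ranges overlapped. The gut marker cdx1b overlapped too, with its gene sum at -0.051 (adjusted p = 0.845).

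The digestive organs beside the gut gave few calls. On the list of exocrine pancreas enzymes, 1 of 15 transcripts passed (6.67% against 2.14%), prss59, a trypsin-like protease, at 16.3, 13.5, 20.3, 17.8 and 15 CPM in the 10.2 µg/L libraries A to E and 30.6, 23.6 and 24.3 CPM in the 47.2 µg/L libraries A to C. All 47.2 µg/L libraries were above those at 10.2 µg/L (log2 fold change 0.66 ± 0.13 (SE), adjusted p = 0.0118; lost without 47.2 µg/L A). The list's median log2 fold change was 0.48 (0.16 without 47.2 µg/L A and 0.73 without 47.2 µg/L B), and its libraries were scattered. Summed levels were 2108 to 4606 CPM at 10.2 µg/L and 3720.4 to 7674 CPM at 47.2 µg/L. As transcripts, amy2a (amylase), at 1.12 (adjusted p = 0.0945), and ctrb.1 (chymotrypsin), at 0.81 (adjusted p = 0.110), did not pass. The gene sum of amy2a was called, at 1.1 (adjusted p = 0.0453), and that of ctrb.1 was not, at 0.79 (adjusted p = 0.0562). Of 14 pancreas genes, 2 were higher and 0 lower by their sums, and DESeq2 called 3 transcripts higher. Among 36 hepatocyte transcripts the median was -0.19 (-0.11 without 47.2 µg/L B) and only f7, coagulation factor VII, passed (2.78%, near the 2.14% of all transcripts), at -0.74 (adjusted p = 0.0179), held in 5 of the 8 leave-one-out fits. Of 32 hepatocyte genes, 4 were lower and 0 higher by their sums, beside 11% of all genes called, and DESeq2 called 5 transcripts lower. The liver fatty acid binding protein fabp10a had a log2 fold change of -0.65 (adjusted p = 0.0691) as a transcript and of -0.67 (adjusted p = 0.0231) as a gene sum, which was called, as was that of the apolipoprotein apoa2, chosen after its values were seen, at -0.47 (adjusted p = 0.0457). The gene sums of the other matched liver markers were not called. They were fga at 0.0080 (adjusted p = 0.979), fgb at 0.098 (adjusted p = 0.634) and ambp at -0.37 (adjusted p = 0.0759). The transcript of kng1 (kininogen) was at -0.46 (adjusted p = 0.0609). The lipid receptor cd36 was at -0.61 (adjusted p = 0.0512).

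Genes of cartilage, bone and extracellular matrix gave more calls than any other single list. Of 91 transcripts tested, 17 rose and 0 fell (18.7% against 2.14%). In the same list 46 were higher and 1 lower at an unadjusted p below 0.05 and DESeq2 called 33 higher and 1 lower. The estimate was higher at 47.2 µg/L in 78 of the 91, with a median of 0.71, and summed per gene 26 of 62 rose, beside 5.97% of all genes. Summed levels were 4387 to 8773 CPM at 10.2 µg/L and 7968 to 12704 CPM at 47.2 µg/L, so the list as a whole overlapped between groups. Relative to the 10.2 µg/L mean, the mean log2 level of the list was 0.31 in water, 0.79 at 0.19 µg/L, 0.55 at 0.74 µg/L and 0.12 at 3.38 µg/L. Of the 17 called, 13 had both 0.19 and 0.74 µg/L nearer to 47.2 µg/L and 1 had all 4 other groups nearer to 10.2 µg/L. Their number was 6, 10 and 6 without 47.2 µg/L A, B or C, and 8, 8 and 7 without 10.2 µg/L A, B or E.

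The strongest call on this list was spp1 (osteopontin), a secreted phosphoprotein of bone that leukocytes also make, at 14.3, 11.9, 17.3, 14.1 and 15.3 CPM in the 10.2 µg/L libraries A to E and 38.1, 36.6 and 25.8 CPM in the 47.2 µg/L libraries A to C. The lowest 47.2 µg/L library was well above the highest at 10.2 µg/L (log2 fold change 1.2 ± 0.17 (SE), adjusted p = 0.00206; held in 8 of the 8 leave-one-out fits). Its mean was 35.2 CPM at 0.19 µg/L, 30.0 CPM at 0.74 µg/L and 21.4 CPM in water. The membrane-bound matrix metalloproteinases mmp14a and mmp14b rose by 1.06 and 0.93, and mmp2, the secreted gelatinase that MT1-MMP activates in mammals, by 0.89 on the log2 scale. The inhibitor timp2a rose by 0.41. Of the small leucine-rich proteoglycans, which bind collagen fibrils, ogna was at 21.1, 19, 32.9, 28.2 and 17.6 CPM at 10.2 µg/L (A to E) and 61.2, 52.0 and 43.1 CPM at 47.2 µg/L (A to C). Its groups were apart (log2 fold change 1.13 ± 0.19 (SE), adjusted p = 0.00647; held in 8 of the 8 leave-one-out fits), and prelp at 1.06, bgnb at 0.57 and fmoda at 0.50 were called too.

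Among the collagens, col9a1a, a cartilage collagen chain, stood at 44.9, 45.2, 68.6, 67.1 and 47.6 CPM in the 10.2 µg/L libraries A to E and 94.7, 121 and 152 CPM in the 47.2 µg/L libraries A to C. Library C was the highest at 47.2 µg/L, and without it the call was lost (log2 fold change 1.17 ± 0.23 (SE), adjusted p = 0.0143 with all). One transcript of col2a1a, the main collagen of cartilage, was at 1.90 (adjusted p = 0.0348), while the sum over the transcripts of the gene was at 0.63 (adjusted p = 0.102) and not called. The chains col10a1a of hypertrophic cartilage, col12a1a and col5a2a of fibrils were at 1.29, 1.03 and 0.90, fibronectin fn1a at 1.34, fibulin fbln1 at 0.96 and the hyaluronan link protein hapln1b at 1.92 on the log2 scale. Of these, col10a1a, col12a1a, col5a2a, fn1a and hapln1b each held in 2 of the 8 leave-one-out fits.

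Outside the list, the secreted matrix glycoprotein thbs1a (thrombospondin) was at 13.8, 17.2, 21.1, 24.7 and 11.9 CPM in the 10.2 µg/L libraries A to E and 129.7, 62.1 and 81.7 CPM in the 47.2 µg/L libraries A to C. Even the lowest 47.2 µg/L library was far above the 10.2 µg/L range (log2 fold change 2.36 ± 0.40 (SE), adjusted p = 0.00721; held in 8 of the 8 leave-one-out fits), and the other 4 groups were nearer to 10.2 µg/L, with means of 23.4 to 38.3 CPM. Chosen after their values were seen, thbs1b at 0.87 (adjusted p = 0.00500) and thbs4b at 0.93 (adjusted p = 0.0106) were higher as well, but with 0.19 and 0.74 µg/L nearer to 47.2 µg/L. In the same way, the growth factor igf2b stood at 15.9, 13.6, 17.0, 16.4 and 12.4 CPM at 10.2 µg/L (A to E) and 34.1, 26.6 and 30.1 CPM at 47.2 µg/L (A to C). It did not overlap (log2 fold change 1.01 ± 0.14 (SE), adjusted p = 0.00155), and its means at 0.19 and 0.74 µg/L were 28.4 and 25 CPM. The vessel-wall proteins plvapa and plvapb were at 0.74 (adjusted p = 0.0106) and 0.77 (adjusted p = 0.00632), and the actin-binding protein lasp1 at 0.53 (adjusted p = 0.00128). Like igf2b, these genes were chosen after their values were seen.

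The called genes of photoreceptors and neurons were mostly lower at 47.2 µg/L. Both lists together held 194 transcripts tested, of which 15 fell and 2 rose (8.76% against 2.14%). Summed per gene, 44 of 115 fell and 2 rose, where 11% of all genes passed. For the photoreceptor list the median was -0.51 on the log2 scale, with 6 of 55 lower. Its summed level was 3834 to 6318 CPM at 10.2 µg/L and 3201 to 3703 CPM at 47.2 µg/L, without overlap. In the mean log2 level of the list, which gives each transcript the same weight, the groups did overlap, at -0.37 to 0.42 at 10.2 µg/L and -0.44, -0.35 and -0.59 in 47.2 µg/L libraries A to C. The neuronal list had a median of -0.33 with 9 of 139 lower. Its summed levels were 5214 to 6721 and 4680.2 to 5291 CPM, which overlapped. None of the 17 calls had all 4 other groups nearer to 10.2 µg/L, and in 13 both 0.19 and 0.74 µg/L were nearer to 47.2 µg/L. Relative to the 10.2 µg/L mean, the photoreceptor list's mean log2 level was -0.15 in water, -0.48 at 0.19, -0.21 at 0.74 and -0.040 at 3.38 µg/L. The neuronal list stood at -0.17, -0.40, -0.19 and -0.059 in the same order. In 47.2 µg/L libraries A to C the neuronal list was at -0.19, -0.079 and -0.47. Of these, A and B lay inside the 10.2 µg/L range of -0.21 to 0.23. Of the 10 neuronal calls, 1 remained without 47.2 µg/L A, 5 without C, and 6, 4 and 4 without 10.2 µg/L A, B or E. Of the 7 photoreceptor calls, 0 remained in any of those 5 fits, and the list's median in them ran from -0.53 to -0.43. None remained with the fragment length covariate either, where the median was -0.46.

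The rod visual pigment rho (rhodopsin) was at 1272, 1453, 1160.4, 827 and 1158 CPM in the 10.2 µg/L libraries A to E and 817, 778 and 718 CPM in the 47.2 µg/L libraries A to C. Library D at 10.2 µg/L came close to the 47.2 µg/L range without entering it (log2 fold change -0.61 ± 0.15 (SE), adjusted p = 0.0409). The gamma subunit of rod transducin, gngt1, which passes the signal on from rhodopsin, stood at 76.0, 110.2, 41.1, 49.8 and 73.2 CPM at 10.2 µg/L (A to E) and 38.2, 20.7 and 23.1 CPM at 47.2 µg/L (A to C). The ranges nearly touched at 10.2 µg/L C and 47.2 µg/L A (log2 fold change -1.36 ± 0.32 (SE), adjusted p = 0.0324), and both rho and gngt1 held in 2 of the 8 leave-one-out fits. The calcium sensor rcvrn2 (recoverin) fell by 0.91, the opsin-like retinal G protein receptors rgra and rgrb by 0.66 and 0.64, and the phosphodiesterase subunit pde6b by 0.50 on the log2 scale. The transcript that rose was gnb1a, a G protein beta subunit used in many tissues, at 0.46 (adjusted p = 0.0205). Lens genes, from the other light-handling tissue of the eye, gave 0 calls among 32 (0 higher and 7 lower at an unadjusted p below 0.05, and 5 lower with DESeq2, beside 3.62% of all). The lens median was -0.27 (-0.13 without 47.2 µg/L C, -0.15 without 10.2 µg/L B and -0.40 without 10.2 µg/L C), with mipa at -0.65 (adjusted p = 0.0506), mipb at -0.99 (adjusted p = 0.0532) and crybb1l2 at -0.96 (adjusted p = 0.0541).

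The neuronal genes that fell act at the synapse and in firing. The vesicle SNARE vamp2 (synaptobrevin) was at 475, 514, 405, 388 and 481 CPM in the 10.2 µg/L libraries A to E and 290.3, 344 and 302 CPM in the 47.2 µg/L libraries A to C. The highest 47.2 µg/L library was below the lowest at 10.2 µg/L (log2 fold change -0.54 ± 0.099 (SE), adjusted p = 0.0106; lost without 47.2 µg/L A). Its partner in fusion stxbp1a fell by 0.59, the vesicle proteins syn2a and synpra by 0.55 and 0.67, the potassium channels kcnc1b and kcna1a by 0.63 and 0.36, and the kinase subunit camk2a by 0.63 on the log2 scale. Vesicle transporters for glutamate and for GABA and glycine both fell, slc17a6b by 0.39 and slc32a1 by 0.31. The exception was hpca (hippocalcin), a neuronal calcium sensor, at 8.99, 5.63, 6.31, 7.16 and 5.18 CPM in the 10.2 µg/L libraries A to E and 13.7, 13.1 and 13.9 CPM in the 47.2 µg/L libraries A to C. All 47.2 µg/L libraries were higher (log2 fold change 1.03 ± 0.17 (SE), adjusted p = 0.00667; held in 8 of the 8 leave-one-out fits), and the means of hpca at 0.19 and 0.74 µg/L, 13.5 and 14.2 CPM, were at the 47.2 µg/L level.

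On the list of neuropeptides and pituitary hormones, 1 of 58 transcripts passed, 1.72% and no more than the 2.14% of all transcripts. It was npvf, the precursor of RFamide peptides made in a small group of hypothalamic neurons, at 1.26, 1.21, 1.22, 1.51 and 1.68 CPM in the 10.2 µg/L libraries A to E and 0.658, 0.329 and 0.420 CPM in the 47.2 µg/L libraries A to C. Though its counts were low, all 47.2 µg/L libraries were below all those at 10.2 µg/L (log2 fold change -1.54 ± 0.34 (SE), adjusted p = 0.0226; held in 5 of the 8 leave-one-out fits), and the other 4 groups, at 1.16 to 1.5 CPM on average, were nearer to 10.2 µg/L. The secretory granule proteins scg5 and scg2a had log2 fold changes of -0.40 (adjusted p = 0.0540) and 0.45 (adjusted p = 0.104).

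Of 51 transcripts of the unfolded protein and heat shock list, 4 rose and 0 fell (7.84% against 2.14%), with a median of 0.22. At an unadjusted p below 0.05, 15 were higher and 0 lower, and DESeq2 called 9 higher and 0 lower. Summed per gene, 8 of 45 rose and 0 fell, where 5.97% of all genes rose. The small heat shock protein hspb8 was at 26.9, 23.4, 26.7, 31.1 and 33.2 CPM in the 10.2 µg/L libraries A to E and 59.6, 44.1 and 38.9 CPM in the 47.2 µg/L libraries A to C. All 47.2 µg/L libraries were above those at 10.2 µg/L (log2 fold change 0.75 ± 0.14 (SE), adjusted p = 0.0110; lost without 47.2 µg/L A), and the means of the other groups, 30.7 to 32.5 CPM, were near 10.2 µg/L. The transcription factors ddit3 (CHOP) and atf3, induced in the integrated stress response, were at 0.81 (adjusted p = 0.0223) and 1.15 (adjusted p = 0.0435), and the co-chaperone dnajb1b at 0.71 (adjusted p = 0.0477). These 3 held in 5, 1 and 2 of the 8 fits. On the list of complement, interferon and antimicrobial genes, 3 of 34 rose and 0 fell (8.82% against 2.14%), with a median of 0.33. At an unadjusted p below 0.05, 11 of them were higher and 1 lower. DESeq2 called 4 higher and 0 lower, and 4 of 28 gene sums rose. The interferon regulatory factor irf1b stood at 5.84, 5.57, 5.92, 5.82 and 6.80 CPM at 10.2 µg/L (A to E) and 17.2, 9.57 and 13.5 CPM at 47.2 µg/L (A to C). Its 10.2 µg/L libraries lay close together and below all at 47.2 µg/L (log2 fold change 1.16 ± 0.30 (SE), adjusted p = 0.0423; held in 2 of the 8 leave-one-out fits). The cytokine signalling inhibitor socs3b was at 0.59 and the NF-kappaB subunit nfkb2 at 0.50 on the log2 scale. Of the 3 calls on this list, 0 remained without 47.2 µg/L A or without 10.2 µg/L E. Of 45 oxidative stress transcripts, 2 fell (4.44% against 2.14%), the superoxide dismutase sod1 at -0.34 (adjusted p = 0.0485) and the lipid peroxide reductase gpx4a at -0.67 (adjusted p = 0.0269), and 0 rose. Both calls were lost without 47.2 µg/L A or B, without 10.2 µg/L A, B or E, and with the fragment length covariate. The list's median was 0.23 (0.079 without 47.2 µg/L B). At an unadjusted p below 0.05, 9 were higher and 2 lower, DESeq2 called 4 higher and 2 lower, and the metal-responsive factor mtf1 was at 0.40 (adjusted p = 0.0595).

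Genes of the drug's main target gave no call. Of 32 serotonin signalling transcripts 0 passed (1 higher and 3 lower at an unadjusted p below 0.05, and 0 with DESeq2). The list's median was -0.25 (-0.15 without 47.2 µg/L A and -0.17 without 10.2 µg/L A). The serotonin transporter slc6a4a was at 6.72, 6.12, 8.14, 6.99 and 5.18 CPM in the 10.2 µg/L libraries A to E and 9.55, 7.19 and 10.7 CPM in the 47.2 µg/L libraries A to C. The ranges overlapped (log2 fold change 0.46 ± 0.43 (SE), adjusted p = 0.696), and slc6a4b, its second copy, had 0.16 (adjusted p = 0.816). A change of the size estimated could not be told from the spread. The receptors htr1b and htr3a were at -0.44 (adjusted p = 0.260) and 0.50 (adjusted p = 0.269), and aanat1, which makes melatonin from serotonin, at -0.51 (adjusted p = 0.226).

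Among 25 transcripts of biotransformation and efflux, with a median of 0.072 (-0.010 without 10.2 µg/L A), 6 were higher and 0 lower at an unadjusted p below 0.05. DESeq2 called 4 higher and 0 lower, and 4 of 21 gene sums rose. In edgeR 2 transcripts rose and 0 fell (8.00% against 2.14%). The one with the smallest p of all transcripts tested was slc22a16, a transporter of carnitine and organic cations in mammals, at 59.4, 59.5, 63.4, 56.8 and 62.7 CPM in the 10.2 µg/L libraries A to E and 93.3, 103 and 111 CPM in the 47.2 µg/L libraries A to C. Each group was tight and the lowest 47.2 µg/L library was far above the highest at 10.2 µg/L (log2 fold change 0.76 ± 0.068 (SE), adjusted p = 7.23e-06; held in 8 of the 8 leave-one-out fits). Its means were 59.9 ± 4.23 CPM in water (SD, n = 5), 107 ± 9.87 at 0.19 µg/L (SD, n = 3), 93.4 ± 4.06 at 0.74 µg/L (SD, n = 5) and 63.3 ± 2.75 at 3.38 µg/L (SD, n = 5). The high groups were thus 0.19, 0.74 and 47.2 µg/L. The dioxin receptor ahr2 was at 0.87 (adjusted p = 0.0464), held in 3 of the 8 leave-one-out fits, while its target cyp1a was at 55.2, 35.3, 57.5, 49.2 and 43.8 CPM at 10.2 µg/L (A to E) and 56.4, 39.7 and 49.7 CPM at 47.2 µg/L (A to C). These overlapped fully (log2 fold change 0.010 ± 0.15 (SE), adjusted p = 0.995), and cyp1c1 at 1.08 (adjusted p = 0.0612) and cyp3a65 at 0.13 (adjusted p = 0.789) did not pass.

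The remaining lists gave 2 calls or fewer each, and the shares called were 4.17% for the glucocorticoid stress axis, 4.35% for skin, 3.08% for skeletal muscle, 2.33% for lipid and energy metabolism and 6.67% for the estrogen list, against 2.14% of all transcripts. With so few calls, and the lipid share next to that of all transcripts, all but skin are described by their genes alone. Of the 24 transcripts of the glucocorticoid stress axis, tsc22d3 (GILZ) rose, at 0.79 (adjusted p = 0.0423), though it was lost in all but 1 of the 8 fits and its gene sum was at 0.29 (adjusted p = 0.163). Both transcripts of fkbp5, another glucocorticoid-induced gene, had overlapping groups, at 1.08 (adjusted p = 0.349) and 0.47 (adjusted p = 0.808). Neither sgk1 at 0.59 (adjusted p = 0.228) nor cyp11c1 at -0.70 (adjusted p = 0.243) passed. In skin, 2 of 46 rose, the keratin krt18b at 0.82 (adjusted p = 0.0159) and the bicarbonate cotransporter slc4a4b at 1.05 (adjusted p = 0.0276). The estimate was higher in 37 of these 46, with a median of 0.36, though the mean log2 level of the list overlapped between groups. At an unadjusted p below 0.05, 19 skin transcripts were higher and 2 lower, and DESeq2 called 10 higher and 1 lower. Summed per gene, 8 of 37 rose and 1 fell, beside 5.97% and 5.00% of all genes. In skeletal muscle, 2 of 65 rose, the tropomyosins tpm2 at 0.52 (adjusted p = 0.0398), with overlapping groups, and a transcript of tpma at 0.89 (adjusted p = 0.0348), whose gene sum was at -0.013 (adjusted p = 0.959). The transcript of ckmt2a, a muscle creatine kinase, was at -0.67 (adjusted p = 0.0653). In lipid and energy metabolism, 1 of 86 rose, a transcript of acacb (acetyl-CoA carboxylase) at 1.96 (adjusted p = 0.0233) with its gene sum at 0.13 (adjusted p = 0.608). In the same list 1 fell, the fatty acid receptor pparaa at -0.49 (adjusted p = 0.0499). On the estrogen list, shbg, which carries sex steroids in blood, fell, at -0.72 (adjusted p = 0.0433), and the yolk precursor vtg1 was not among the transcripts tested. Of the 15 transcripts of that list no other passed. The calls named here without further remark held in 5 (krt18b), 4 (slc4a4b), 3 (tpm2), 1 (pparaa) and 2 (shbg) of the 8 fits.

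No transcript passed in edgeR on the lists of cholesterol biosynthesis, circadian clock, cell cycle, erythroid cells and the thyroid axis. These held 32, 62, 64, 29 and 31 transcripts tested. Their medians were 0.15, -0.12, 0.12, 0.14 and 0.0086, and with 1 library left out these ran over 0.047 to 0.27, -0.18 to -0.014, -0.18 to 0.37, -0.069 to 0.25 and -0.066 to 0.10, on both sides of 0 for the cell cycle, erythroid cells and the thyroid axis. At an unadjusted p below 0.05 there were 2, 8, 0, 1 and 3, and DESeq2 called 0, 1, 0, 1 and 1. The lowest p among the sterol genes was that of lbr, with a log2 fold change of -0.58 (adjusted p = 0.194), and the sterol regulator srebf2 was at 0.22 (adjusted p = 0.524). In the clock it was a transcript of nr1d2a at -3.04 (adjusted p = 0.0621), with the gene sum at 0.011 (adjusted p = 0.977), before tefb at 0.44 (adjusted p = 0.221) and per3 at -0.67 (adjusted p = 0.246). The thyroid hormone precursor tg was at 1.11 (adjusted p = 0.0775) and the deiodinase dio2 at -0.70 (adjusted p = 0.243). Cell cycle levels differed widely between libraries of 1 group, the list mean running from -0.61 in 47.2 µg/L A to 0.48 in 47.2 µg/L C. Library A was likewise below library C at 10.2 µg/L (-0.40 and 0.35) and in water (-0.74 and 0.26), and in every group but 0.19 µg/L. The mitotic kinase aurka was at 0.44 (adjusted p = 0.598). The haem gene slc25a37 was at -0.48 (adjusted p = 0.0852).

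**Figure D3:**
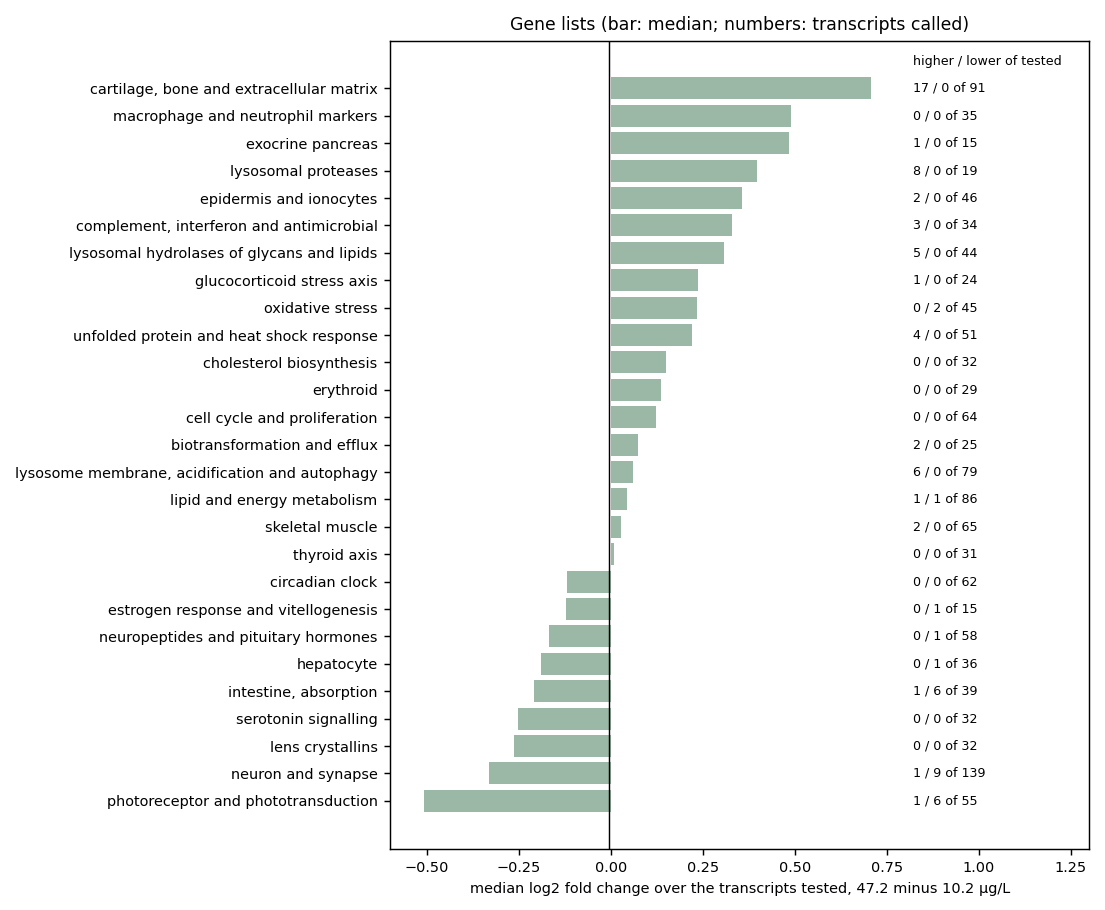
Median log2 fold change between 47.2 and 10.2 µg/L over the transcripts tested of each of 27 gene lists (bars, x axis), with the numbers called higher and lower of those tested at the right and a vertical line at the median of all transcripts. The matrix list is at the top with 17 higher and 0 lower of 91, and the photoreceptor list at the bottom with 1 higher and 6 lower of 55.

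**Figure D4:**
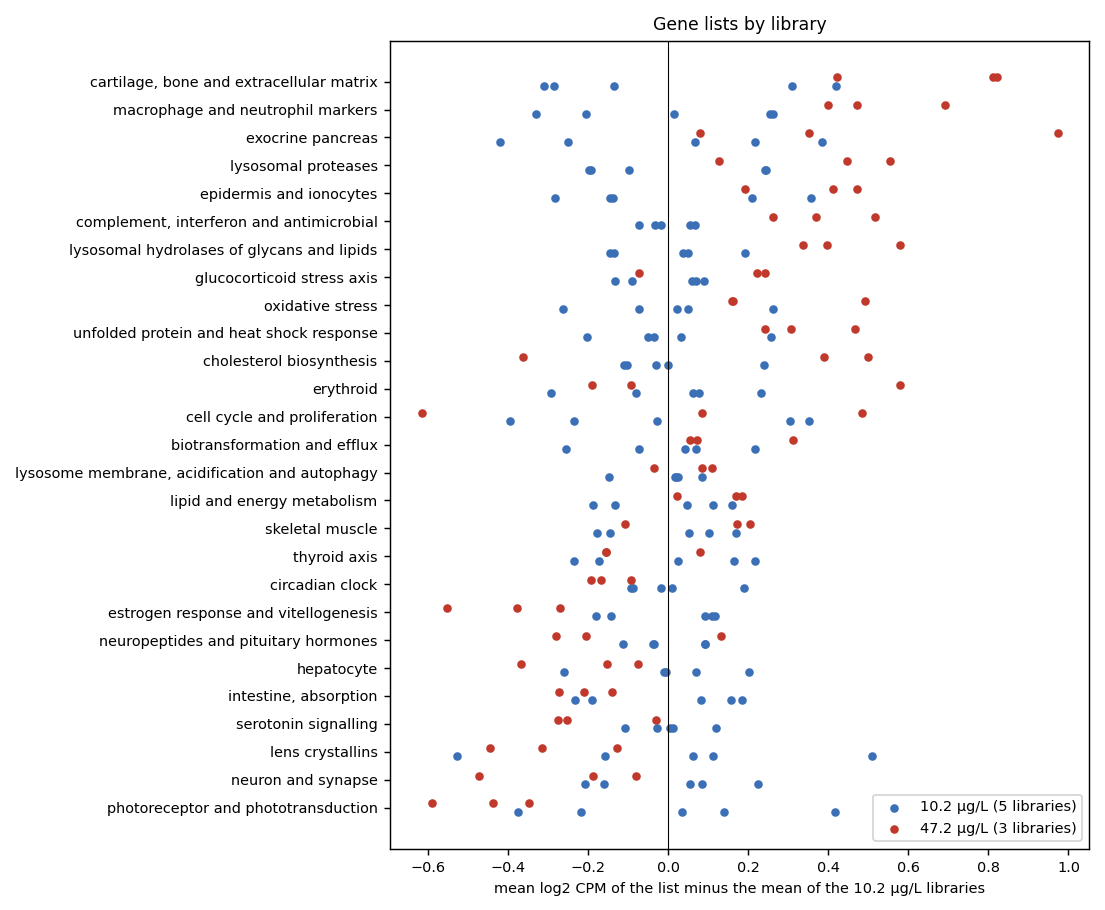
Mean log2 CPM of each gene list in each of the 8 libraries, minus the mean of the 10.2 µg/L libraries (x axis), with 10.2 µg/L in blue and 47.2 µg/L in red. Lists whose red points lie clear of the blue ones include the hydrolases of glycans and lipids and the complement, interferon and antimicrobial genes, whereas pancreas and cell cycle points are scattered.

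The largest fold changes were those of single transcripts, and not all were matched by the sum of the gene. Of the 15 higher and 15 lower named transcripts with the largest changes, the sum over the transcripts of the gene was also called in 7 and 8. One transcript of rgs3b, a regulator of G protein signalling, held 0, 0, 0, 1 and 0 counts in the 10.2 µg/L libraries A to E and 153, 79 and 38 counts in the 47.2 µg/L libraries A to C. It was all but absent at 10.2 µg/L and called (adjusted p = 0.0157; held in 5 of the 8 leave-one-out fits), while the gene sum had a log2 fold change of 0.79 (adjusted p = 0.0707). A transcript of cadpsb, which primes dense-core vesicles, held 6, 7, 0, 4 and 0 counts in the 10.2 µg/L libraries A to E and 233, 448 and 451 counts in the 47.2 µg/L libraries A to C and was called in none of the 8 leave-one-out fits. The sum of cadpsb went the other way, at -0.50 (adjusted p = 0.165). A transcript of nbeaa (neurobeachin) held 2, 2, 0, 0 and 0 counts in the 10.2 µg/L libraries A to E and 149, 47 and 62 counts in the 47.2 µg/L libraries A to C, and its sum was at -0.18 (adjusted p = 0.609). In the other direction, a transcript of rai14 held 273, 134, 41, 177 and 84 counts in the 10.2 µg/L libraries A to E and 0, 0 and 0 counts in the 47.2 µg/L libraries A to C. With 3 counts per library as the floor, it was at least 57.2-fold lower at 47.2 µg/L, yet the sum of rai14 was at -0.048 (adjusted p = 0.925). How kallisto divides reads between the transcripts of a gene bears on such values, and its part was not tested.

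A transcript of the myelin gene mbpa (myelin basic protein) was at 35.0, 48.8, 24.4, 23.8 and 51.0 CPM in the 10.2 µg/L libraries A to E and 1.1, 1.68 and 4.32 CPM in the 47.2 µg/L libraries A to C. The groups lay far apart (log2 fold change -3.96 ± 0.62 (SE), adjusted p = 0.00514; held in 8 of the 8 leave-one-out fits), and the gene sum was lower too, at -0.46 (adjusted p = 0.0282), a much smaller change. The means of this transcript at 0.19 and 0.74 µg/L were 3.14 and 2.46 CPM, and 19.2 CPM in water. A pair of transcripts of atp5mc3b, the ring subunit of the mitochondrial ATP synthase, chosen after their values were seen, moved in opposite directions. The first stood at 302, 316, 279, 277 and 378 CPM at 10.2 µg/L (A to E) and 156, 188 and 203 CPM at 47.2 µg/L (A to C). The second stood at 262, 217, 227, 218 and 220.2 CPM at 10.2 µg/L (A to E) and 311, 313 and 302 CPM at 47.2 µg/L (A to C). Neither overlapped between groups (log2 fold change -0.77 ± 0.11 (SE), adjusted p = 0.00236 and log2 fold change 0.43 ± 0.078 (SE), adjusted p = 0.0104), and the sum of both was at -0.15 (adjusted p = 0.204).

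Where the gene sum was called as well, the large increases included the secreted serpin serpinf1 (PEDF) at 1.85, the mesenchymal transcription factor twist3 at 1.91, the sulfotransferase sult5a1 at 1.99 and the lymphatic hyaluronan receptor lyve1a at 1.78 on the log2 scale for the transcript. The decreases included the synaptotagmin syt5a at -1.96, the kinase subunit camk2g2 at -1.96, the clathrin uncoating factor dnajc6 (auxilin) at -1.55, the splicing factor srek1 at -1.64 and the potassium channel partner kcnip1b at -1.5. Their gene sums ran from -1.99 for syt5a to -0.27 for camk2g2 among the decreases and from 1.76 for lyve1a to 1.97 for sult5a1 among the increases. Without the gene sum called, card9, an adaptor of innate immunity, was at 2.2, ano10b at 4.59 and slain2 at 1.84, and eml3, fndc3a, eif4g1a, dyrk2, slitrk5 and vezf1a were between -1.94 and -1.24. These transcripts held in 1 to 7 of the 8 leave-one-out fits. For ano10b only the 10.2 µg/L group was low. On the scale from the 10.2 µg/L mean (0) to the 47.2 µg/L mean (1), it lay at 0.96 in water. At 0.19, 0.74 and 3.38 µg/L it lay at 0.95, 1.06 and 0.94.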

How the data were processed

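The submitters' processing notes name Trimmomatic 0.38, kallisto and DESeq2, the last pair with no version. For the kallisto index, its genome build and its settings, the answer is not given in the sources used here. Estimated counts per transcript, from kallisto, were deposited by the authors once per library and once for all 26 libraries (largest difference between both forms 5e-08). The authors also deposited TPM values, which are scaled by transcript length to a common sum and served here only for the marker check. The deposited transcript and effective lengths, in bases (a score per transcript in each library), gave each library's fragment length over transcripts of at least 3000 bases.

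Estimated counts were rounded and tested per transcript with edgeR 4.0.16 (with limma 3.58.1, R 4.3.3 and the data.table package, version 1.17.8). The steps were filterByExpr over the 6 groups (43837 of 57299 transcripts, 99.9% of counts), TMM scaling (factors 0.961 to 1.04 in the 8 libraries), and a robust quasi-likelihood fit of all 26 libraries without covariates, tested two-sided. Calls were made where the p-value, adjusted over all transcripts by Benjamini and Hochberg, was below 0.05. The SE follows from the fold change and its F statistic. Levels are CPM on TMM-scaled library sizes. Floors cover counting error only. No molecular identifiers are described.

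Symbols came from the RefSeq gene table of assembly fPimPro1.hap1.1, matched by accession without version: 55.1% of transcripts, 82.6% of counts, 54.9% of those tested with a symbol. That build may differ from the authors', so no coordinates are given. Kallisto divides reads among similar transcripts, so each transcript is less certain than its gene's sum. Libraries were grouped by their labels.

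The members and the 27 gene lists (1340 genes) were chosen with earlier results of these data known. Named were the 15 transcripts with the largest change in each direction among called transcripts that had a symbol and averaged 1 CPM or more, every called transcript on a list, the 3 lowest p-values of each list of at least 5 transcripts, and slc6a4a, slc6a4b, ctsla, lgmn, slc15a1a, cyp1a, cyp3a65, fkbp5 and vtg1. Others named are marked as chosen after their values were seen, as are the comparison with the mean of 0.19 and 0.74 µg/L and the fit without those libraries. The test was tried on simulated counts that carried no effect of replicate letter or fragment length, so that trial does not bear on either. Alternatives were DESeq2 1.42.0, its size factors, no filter, the 8 libraries alone, a replicate block, fragment length as a covariate, sums per gene, and each of the 8 libraries left out.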

Additional observations from a re-analysis of the deposited data

Results flagged for a closer look

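Within the 5 libraries at 10.2 µg/L, a single library stood far from the others, by Dixon's test, in 12 of the 160 named transcripts. The groups of 3 at 47.2 µg/L were not tested, and such a test passes by chance in about 5% of groups. Library D was the one that stood apart in 7 of them. It was high for ctsla at 642 CPM where the other libraries were at 404 to 450.0, for pla2g15 at 73.0 where they were at 53.5 to 58.0, for atf3 at 14.8 where they were at 7.58 to 9.40, for sult5a1 at 1.46 where they were at 0.518 to 0.787, and for s100v2 at 88.8 where they were at 50.6 to 61.3. The transcripts of rgs3b and ano10b had counts in library D alone, at 0.0582 and 1.05 CPM. Library A was high for ddit3 at 66.8 CPM (others 49.5 to 52.9) and for the atp5mc3b transcript that rose at 262 (others 217 to 227), and low for dnajc6 at 14 (others 18.9 to 20.6). Library E was high for fabp6 at 336 CPM (others 219 to 239) and for irf1b at 6.80 (others 5.57 to 5.92). Without library D the number of transcripts called was 2201.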

How the results depend on the processing

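The number of transcripts called depended on the fit. DESeq2 called 3222 (1634 higher, 1588 lower), a fragment length covariate left 284 (172 higher, 112 lower), the 8 libraries alone 0 (0 higher, 0 lower; 4793 at an unadjusted p below 0.05), sums per gene 2090 (1137 higher, 953 lower), and the fit without the 0.19 and 0.74 µg/L libraries 333 (162 higher, 171 lower). With 1 library left out the counts ran from 114 to 2201 (74 to 1274 higher, 40 to 927 lower). A term for the replicate letter gave 2618 (1477 higher, 1141 lower). Over all transcripts, same-lettered libraries of both groups correlated at 0.0122 to 0.0290 and others at -0.0462 to 0.0455. In the cell cycle and matrix lists, however, library A was below library C in every group but 0.19 µg/L. It was below C in every group in the skeletal muscle and erythroid lists. In the neuronal and photoreceptor lists library A was above library C in every group. In the lysosomal protease list the order changed between groups. At 47.2 µg/L no library carries the letter D or E. The main fit has no term for the letter because the labels do not say what a letter shares. Whether it marks a shared litter or batch was not tested. DESeq2's size factors gave 960 and no filter 705. All 940 kept their direction in every fit of transcripts except that of the 8 libraries, where 937 of them were tested and 937 kept it. These fits reuse the libraries that chose the transcripts, so a kept direction is no independent support. The causes were not tested. Of the 114 named transcripts called, 18 stayed called whichever library was left out, and 27 did without 47.2 µg/L A. Estimates changed sign in sums per gene for thrb (0.00087), eml3 (0.21), fndc3a (0.065), tpma (-0.013), eif4g1a (0.16), nbeaa (-0.18), nr1d2a (0.011), cadpsb (-0.50), ncapd2 (0.14) and 1 atp5mc3b transcript (-0.15), for cyp3a65 without 47.2 µg/L B (-0.12 to 0.39 over the leave-one-out fits), and for cyp1a (-0.047, -0.11 and -0.0086 with the replicate block, the fragment length covariate and sums per gene, and -0.11 to 0.14 over the leave-one-out fits, below 0 without 47.2 µg/L A, 47.2 µg/L C, 10.2 µg/L B or 10.2 µg/L E). List medians moved by more than the spread between libraries in 10 of 432 recalculations, and by at most 0.047 with transcripts at 0 in a whole group set to their bound. That spread is a wide limit, so the 10 of 432 is no measure of stability. The cell cycle median, 0.12, became -0.18 without 47.2 µg/L C and counted as not moved, its spread being 0.42. Depth limits transcripts near 3 counts, where a difference could not be detected.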
